A study of Sus scrofa with 4 samples.

Results

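The core circadian clock genes are the 10 protein-coding genes ARNTL, CLOCK, NR1D1, NR1D2, PER2, PER3, CRY1, CRY2, DBP and BHLHE40, chosen by symbol from the 16192 protein-coding genes measured in porcine subcutaneous preadipocytes as they differentiated into adipocytes in culture. Each gene was found once, and 10 of 10 matched a RefSeq gene by symbol, start and end on Sscrofa11.1. The cells came from male Chinese Erhualian piglets less than a week old. RNA was collected at D0, when the cells had grown to confluence and before any inducing agent, and at D2, D4 and D8 of differentiation. The cells at D2 had been kept since D0 in the inducing cocktail of dexamethasone, 3-isobutyl-1-methylxanthine and insulin, those at D4 had then been in medium with insulin alone, and those at D8 had then been in growth medium without the inducers. At each stage, RNA of 3 piglets was pooled in equal amounts into 1 library, so the spread between piglets was not measured, no test between stages was possible, and every difference below is one between 2 pooled libraries.

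The mammalian clock is a feedback loop of transcription. ARNTL (also called BMAL1) pairs with CLOCK to switch on genes that carry E-box elements, among them the PER and CRY genes, whose proteins then block that pair, and BHLHE40, which competes for the same elements. A second loop is formed by the nuclear receptors NR1D1 and NR1D2 (REV-ERB alpha and beta), which repress ARNTL, while the ROR receptors activate it, and the outputs run through factors such as DBP that bind D-box elements. In fat, the clock is known to time lipid storage and release, ARNTL and the REV-ERB receptors are known to take part in adipocyte differentiation, and glucocorticoids such as dexamethasone and a rise in cAMP can reset the clock of cultured cells. The hour at which each culture was collected is not given in the sources used here, so the stage, the phase of the clock and the library cannot be told apart.

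Expression was given as FPKM, the number of fragments of a gene divided by its length and by the depth of the library. Comparisons of levels between genes rest on the lengths used, and those between libraries are not corrected for a shift across all genes. The libraries held 54128151 to 75387428 fragments behind the FPKM values, as worked out from the values themselves, and the read number of each clock gene was recovered in the same way. The intervals below are 95% exact intervals from these read numbers and cover counting error only. The filter asked for 1 FPKM or more in 3 or more of the 4 libraries, and 6 of the 10 clock genes passed (ARNTL, CLOCK, NR1D2, CRY1, CRY2 and BHLHE40), as did 9191 of the 16192 protein-coding genes. NR1D1, PER2, PER3 and DBP stayed under 1 FPKM in every library. The adipocyte markers ADIPOQ, FABP4, PLIN1, LPL, CEBPA, CIDEC and LIPE summed to 119 FPKM at D0, 464 at D2, 1695 at D4, then 2050 at D8. From D4 to D8 only FABP4 (853 to 1557 FPKM) and CIDEC (5.01 to 54.6) rose. PLIN1 (215 to 90.3), CEBPA (162 to 37.1) and LIPE (31.9 to 10.3) fell at least 2-fold, and LPL and ADIPOQ fell by less. All 6 markers that passed the filter were at least 2-fold higher at D2 than at D0, where 6.67% of all genes that passed were. The preadipocyte or fibroblast markers were high throughout, with sums of 2626 to 3893 FPKM, and of the 5 endothelial markers CDH5, VWF, KDR and TEK were at or near 0 while PECAM1 was at 1.14 to 2.56 FPKM. The leukocyte marker PTPRC was at or near 0. Because the libraries are bulk RNA, fewer cells of a type and less RNA per cell cannot be told apart.

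**Figure D1:**
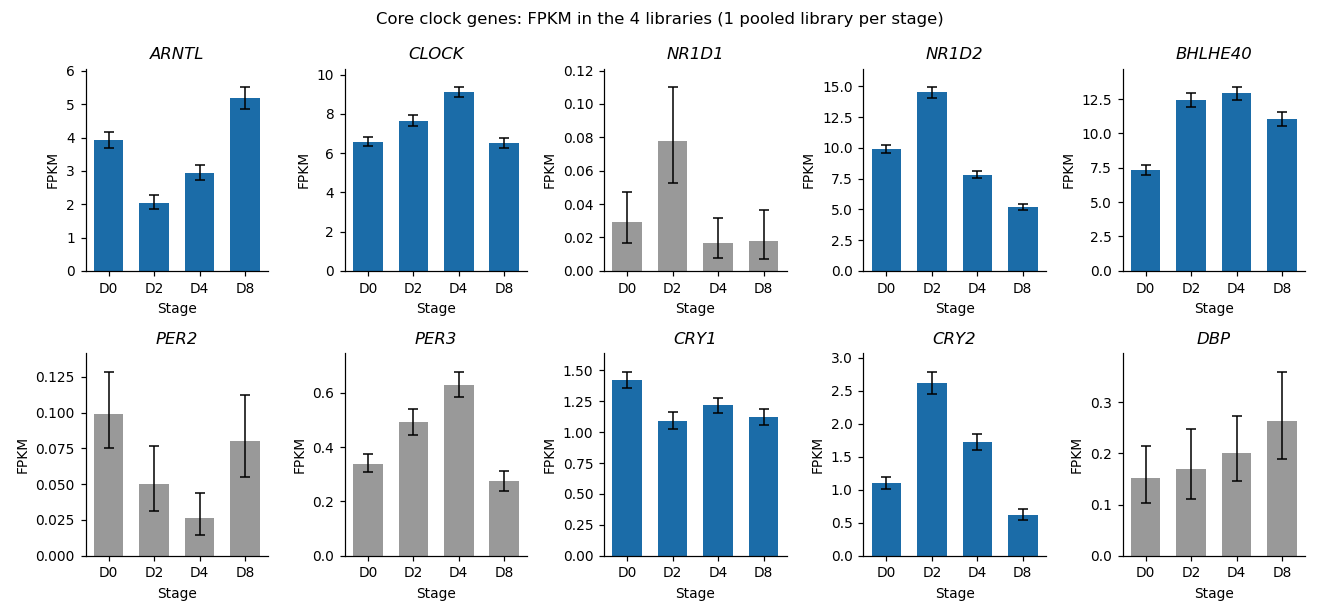
FPKM of the 10 core clock genes (y axis, from 0, a separate scale for each gene) in the D0, D2, D4 and D8 libraries (x axis). Bars are the values of the single pooled libraries, error lines are 95% counting intervals, blue marks the 6 genes that passed the FPKM filter and grey the 4 that did not; ARNTL was lowest and NR1D2 and CRY2 were highest at D2.

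In the activating arm, ARNTL (chr2:45895637-46025174, minus strand) was at 3.92 FPKM at D0, 2.04 at D2, 2.95 at D4, then 5.17 at D8, from 970, 369, 719 and 919 reads. It was lowest in the library taken at the end of the cocktail and highest in the last one, and each step in the order D8, D0, D4, D2 was larger than counting error. ARNTL was 1.91-fold lower at D2 than at D0 (log2 ratio from reads −0.94, 95% interval −1.12 to −0.76), and 2.52-fold higher at D8 than at D2 (1.34, 1.16 to 1.52). CLOCK (chr8:54793323-54910192, minus strand) moved far less, with 6.57 FPKM at D0, 7.64 at D2, 9.11 at D4, then 6.53 at D8. D4 was its highest library, and D0 and D8 did not differ beyond counting error (−0.01, −0.09 to 0.07). The level of CLOCK was 1.68 times that of ARNTL at D0, 3.74 times at D2, 3.09 times at D4, then 1.26 times at D8. TMEM165, on the other strand, overlaps CLOCK by 3030 bases and was at 6.69 to 8.69 FPKM. The value of CLOCK is uncertain to the extent that strand was not used in the counting.

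The REV-ERB receptors differed widely in level, NR1D2 being at 187 to 469 times the FPKM of NR1D1. NR1D2 (chr13:10756954-10791219, plus strand) was at 9.88 FPKM at D0, 14.5 at D2, 7.81 at D4, then 5.20 at D8, from 3894, 4170, 3037 and 1471 reads. Its highest library was the one in which ARNTL was lowest, and its lowest was the one in which ARNTL was highest. Both genes were lower at D4 than at D0, and a link between them was not tested. Every step of NR1D2 in its order D2, D0, D4, D8 was larger than counting error. NR1D2 was 1.47-fold higher at D2 than at D0 (log2 ratio 0.55, 0.49 to 0.62) and 2.79-fold lower at D8 than at D2 (−1.48, −1.57 to −1.39). The level of NR1D2 was 7.10 times that of ARNTL at D2 (6.38 to 7.91), and at D8 the 2 genes were at the same level within counting error (interval of the ratio 0.925 to 1.09). NR1D1 (chr12:22263549-22274131, plus strand) was at 0.0292, 0.0776, 0.0167 and 0.0178 FPKM in the order D0, D2, D4 and D8, from 16, 31, 9 and 7 reads. D2 was again the highest library, above D0 by a log2 ratio of 1.41 (0.49 to 2.38), and the other 3 libraries did not differ from each other beyond counting error. THRA, a thyroid hormone receptor gene on the other strand, covers 34.3% of the span of NR1D1 and was at 0.783 to 1.96 FPKM. The setting for strand in the counting is not given in the sources used here, so the few reads of NR1D1 are uncertain.

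Of the cryptochromes, which block CLOCK and ARNTL, CRY2 changed and CRY1 hardly did. CRY2 (chr2:16587101-16620380, minus strand) was at 1.10 FPKM at D0, 2.61 at D2, 1.72 at D4, then 0.619 at D8, from 541, 939, 834 and 219 reads. It had the largest range of the 6 genes that passed, with D2 highest, D8 lowest and each step in the order D2, D4, D0, D8 larger than counting error. CRY2 was 2.37-fold higher at D2 than at D0 (log2 ratio from reads 1.25, 1.10 to 1.41), 2.74-fold lower at D8 than at D4 (−1.47, −1.69 to −1.25) and 4.17-fold lower at D8 than at D2 (−2.08, −2.30 to −1.86). CRY1 (chr5:13275265-13429566, plus strand) stayed between 1.09 and 1.42 FPKM, with values of 1.42 at D0, 1.09 at D2, 1.22 at D4, then 1.12 at D8. D0 was highest and D2 and D8 did not differ beyond counting error. By FPKM, the more abundant cryptochrome was thus not the same one in every library. CRY1 was at 1.30 times the level of CRY2 at D0 and 1.81 times at D8, and CRY2 was at 2.39 times the level of CRY1 at D2 and 1.41 times at D4. None of the 4 counting intervals held equality, but they do not cover an error in gene length. The shortest lengths that fit were 17277 bases for CRY1 and 6533 for CRY2. In reads, CRY1 was above CRY2 in every library (1853, 1037, 1566 and 1049 for CRY1), so the change of rank rests on the lengths. TMEM263 lies within CRY1 on the other strand at 50.8 to 66.7 FPKM, which was 41.7 to 55.8 times the level of CRY1, and the value of CRY1 is uncertain to the extent that strand was not used.

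The period genes, the partners of the cryptochromes, were low. PER2 (chr15:137793419-137837854, minus strand) was at 0.0991 FPKM at D0, 0.0501 at D2, 0.0264 at D4, then 0.0799 at D8, from 57, 21, 15 and 33 reads. The 2 outer stages were higher than the 2 inner ones, but no neighbours in the order D0, D8, D2, D4 differed beyond counting error. Across wider gaps, PER2 was lower at D4 than at D0 by a log2 ratio of −1.91 (−2.83 to −1.07) and higher at D8 than at D4 by 1.60 (0.67 to 2.58). PER3 (chr6:68487634-68548718, plus strand) went the other way, with 0.340 FPKM at D0, 0.491 at D2, 0.629 at D4, then 0.273 at D8. D4 was its highest library and D8 its lowest, and every step was larger than counting error, including a log2 ratio from reads of −1.20 between D8 and D4 (−1.42 to −0.99). PER3 was thus at 3.42 times the level of PER2 at D0, 9.81 times at D2, 23.8 times at D4, then 3.42 times at D8.

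BHLHE40 (chr13:61526121-61533686, plus strand), the DEC1 repressor, was at 7.35 FPKM at D0, 12.4 at D2, 12.9 at D4, then 11.1 at D8. D0 was the low library and the 3 later ones lay close together, with D2 and D4 not apart beyond counting error. BHLHE40 was 1.69-fold higher at D2 than at D0 (log2 ratio 0.76, 0.67 to 0.85) and 1.50-fold higher at D8 than at D0 (0.59, 0.50 to 0.68). DBP (chr6:53986955-53993044, minus strand), the D-box activator, was at 0.152, 0.169, 0.202 and 0.264 FPKM at D0, D2, D4 and D8, from 32, 26, 42 and 40 reads. No neighbours in that order differed beyond counting error, and the difference of D8 from D0 had an interval of 0.09 to 1.52 around a log2 ratio of 0.80.

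**Figure D2:**
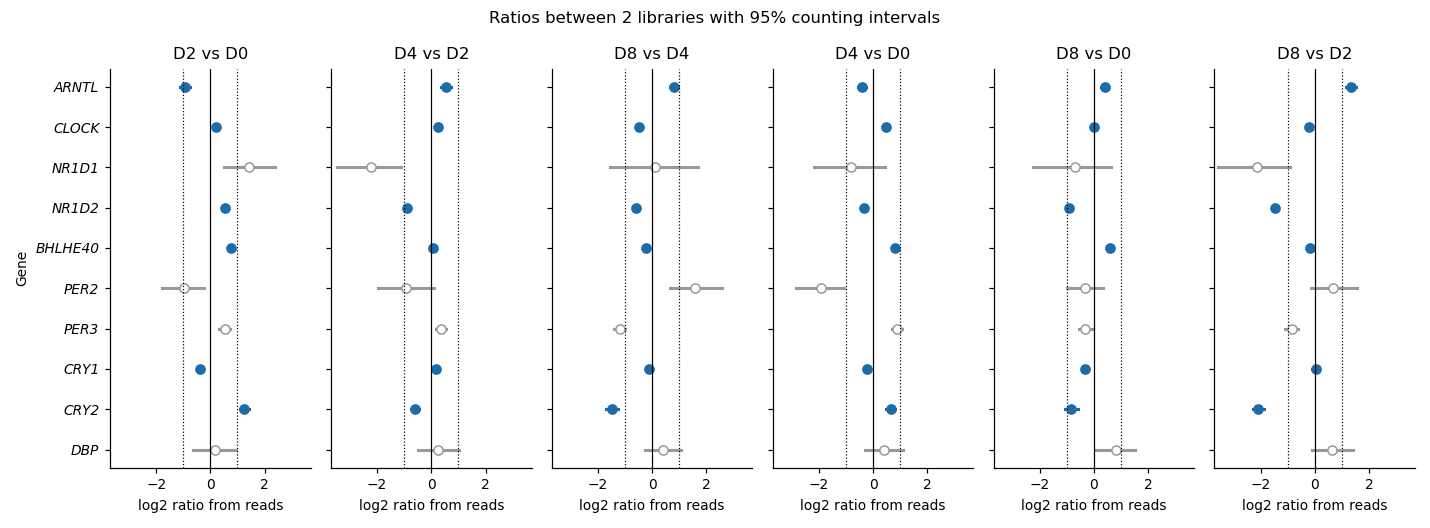
Log2 ratio of each clock gene from read numbers (x axis) in the 5 comparisons of the study and in D8 vs D2, which was added after the values were seen; genes are on the y axis. Points are the ratio of 2 libraries, lines the 95% counting intervals, filled blue points the 6 genes that passed the filter, open grey points the 4 that did not, and dotted lines a ratio of 2; CRY2 lies beyond a dotted line in D2 vs D0, D8 vs D4 and D8 vs D2.

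The comparisons between stages ask which clock genes changed as the cells were induced and then matured, and a gene was counted as changed at a ratio of 2 or more in log2(FPKM + 0.01), with no test. From D0 to D2, 1 of the 6 genes that passed was higher (CRY2) and 0 were lower, where 16.8% of all 9191 genes were called, 6.67% higher and 10.1% lower. With a pseudocount of 1 the log2 ratio of CRY2 there was 0.78 instead of 1.24, and 0 genes were called. From D2 to D4, 0 of 6 were called, against 5.08% of all genes, 4.24% higher and 0.838% lower. From D4 to D8, 1 was lower (CRY2), against 14.5% of all genes, 4.43% higher and 10.1% lower. With a pseudocount of 1 CRY2 was at −0.75 and 0 were called, and with median-ratio scaling 2 were, ARNTL (1.01) and CRY2. With D4 set against D0, 0 of 6 were called, where 19.2% of all genes were, 10.4% higher and 8.81% lower. With D8 set against D0, 0 of 6 were called, where 7.28% of all genes were, 3.60% higher and 3.68% lower. The comparison of D8 with D2 was added after the values were seen. In it 3 of 6 were called, ARNTL higher and CRY2 and NR1D2 lower. Of all genes 11.8% were called, 7.01% higher and 4.79% lower. D2 and D8 are the libraries in which these 3 genes had their extremes, so this count was picked from the values. With 6 genes and no test these counts are a description, and comparisons that share a library are not independent of each other.

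The median log2 ratio of the 6 genes was 0.39 at D2 vs D0 beside −0.03 for all genes that passed, 0.11 at D4 vs D2 beside 0.09, and −0.35 at D8 vs D4 beside −0.21. Against D0 it was 0.12 at D4 beside 0.06, and −0.17 at D8 beside −0.18. The D8 library thus lay somewhat below the others across all genes, a shift that median-ratio scaling brought near 0 (−0.21 became −0.02 at D8 vs D4). Taken relative to the median of all genes, ARNTL was higher at D8 than at D4 by 1.02, CRY2 stood at −1.24 and NR1D2 at −0.37 on the log2 scale.

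The stage of the highest value varied among the clock genes. NR1D1, NR1D2 and CRY2 were highest at D2, CLOCK, PER3 and BHLHE40 at D4, PER2 and CRY1 at D0, and ARNTL and DBP at D8. For BHLHE40, PER2 and DBP the highest library was not above the next beyond counting error. With rescaling by the protein-coding sum or by median ratios, BHLHE40 was higher at D2 than at D4 (log2 ratio of D4 to D2 −0.02 or −0.03 instead of 0.05). The counts that follow use the values as deposited. Of the 6 that passed, 1 was highest at D0, 2 at D2, 2 at D4, then 1 at D8, beside 36.5%, 16.7%, 37.3% and 9.51% of all genes that passed. D8 was the lowest library for 3 of the 6, D2 for 2 and D0 for 1, beside 37.5%, 22.2% and 22.8% of all genes. For CLOCK and CRY1 the lowest library was not below the next beyond counting error. In centred log2 profiles over the 4 libraries, the closest pair among the 6 was CLOCK and BHLHE40, with a root mean square difference of 0.23, and the farthest was ARNTL and CRY2, with 1.26.

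**Figure D3:**
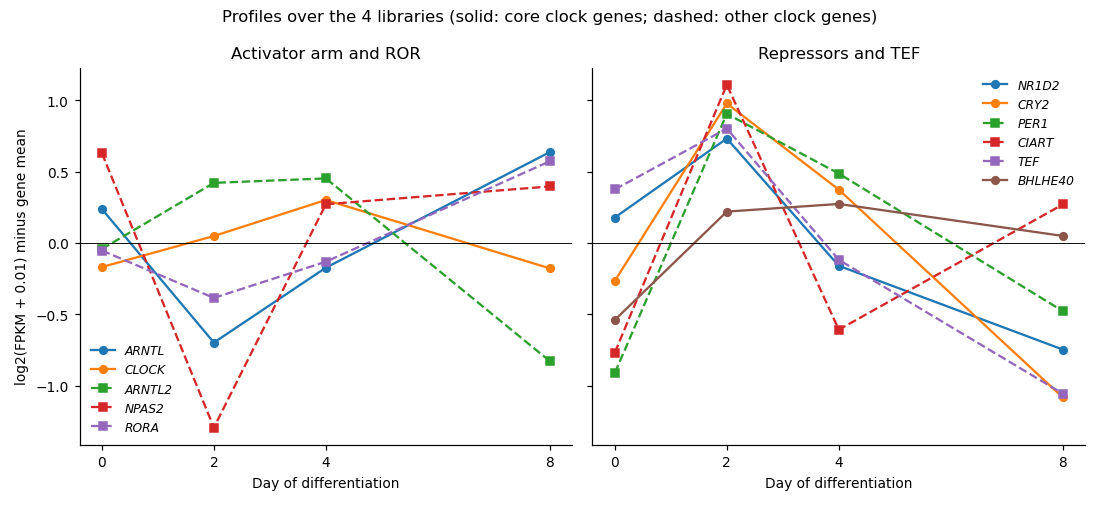
Log2(FPKM + 0.01) minus the mean of the gene over the 4 libraries (y axis) against the day of differentiation (x axis), for the activating arm and RORA on the left and for repressors and TEF on the right. Solid lines with circles are core clock genes and dashed lines with squares are other clock genes, each from 1 pooled library per stage. ARNTL, NPAS2 and RORA are lowest at D2, where NR1D2, CRY2, PER1, CIART and TEF are highest. CLOCK, ARNTL2 and BHLHE40 are highest at D4. The repressors shown are a selection, and CRY1, BHLHE41 and NFIL3, not shown, were lowest at D2. PER2 and PER3, also not shown, were highest at D0 and D4.

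Around the 10 genes, 51 other genes of the clock and its outputs were looked up in 7 lists, of which 46 were measured and 33 passed the filter. TIMELESS, CSNK1E and NONO were among the genes not analysed here, and ALAS1 was listed as a transcribed pseudogene. Of the 33, 2 were higher and 2 lower at D2 than at D0, 1 higher and 1 lower at D4 than at D2, and 1 higher and 4 lower at D8 than at D4, where 16.8%, 5.08% and 14.5% of all genes were called. The counts were 1 and 1 at D4 vs D0, and 2 and 2 both at D8 vs D0 and at D8 vs D2, beside 19.2%, 7.28% and 11.8%. Their median log2 ratio was −0.25, 0.19 and −0.41 in the first 3 of these comparisons.

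Of the partners of the activating arm, ARNTL2, the paralogue of ARNTL, was at 34.0 FPKM at D0, 46.9 at D2, 48.0 at D4, then 19.7 at D8. It was the most abundant of the paralogues compared at D0, D2, D4 and D8, and was lowest where ARNTL was highest, so its level was 8.69, 23.0, 16.3 and 3.82 times that of ARNTL in the 4 libraries in order. NPAS2, which can stand in for CLOCK, was at 1.24, 0.320, 0.966 and 1.05 FPKM at D0, D2, D4 and D8. Like ARNTL it was lowest at D2, and its log2 ratio from reads there against D0 was −1.96 (−2.27 to −1.66). RORA, the activator of ARNTL, was at 0.598, 0.473, 0.566 and 0.928 FPKM, also lowest at D2 and highest at D8. RORB was at 0.0189 FPKM or less.

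**Figure D4:**
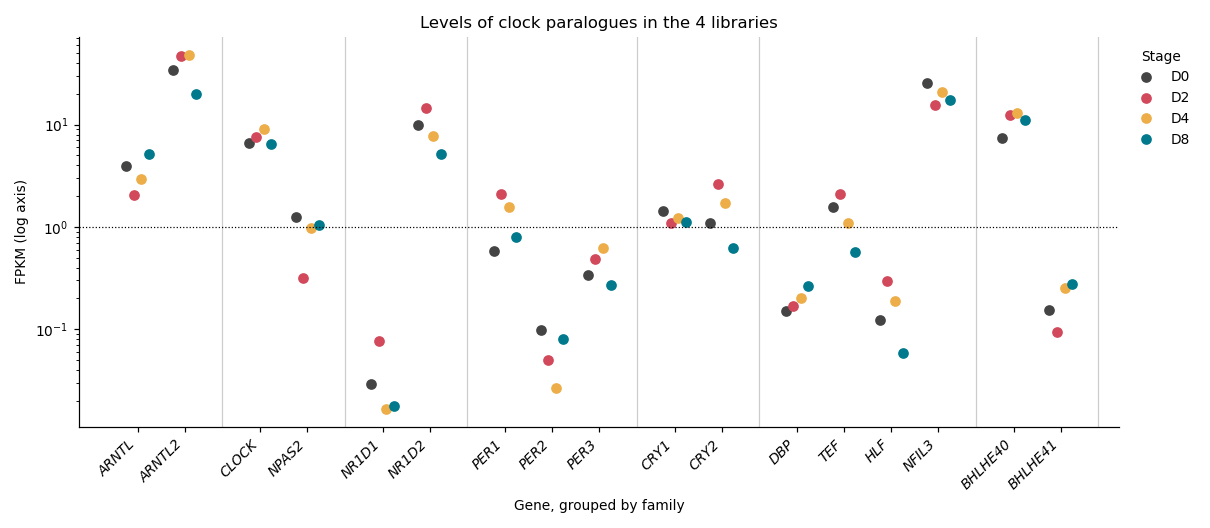
FPKM (y axis, log scale) of clock genes and their paralogues, grouped by family along the x axis, in the D0, D2, D4 and D8 libraries (colours). Each point is 1 pooled library and the dotted line marks 1 FPKM; ARNTL2 lies above ARNTL, NR1D2 above NR1D1 and BHLHE40 above BHLHE41 in every library, and CRY1 and CRY2 change places.

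Among the other repressors, PER1 was at 0.586 FPKM at D0, 2.09 at D2, 1.56 at D4, then 0.795 at D8. It was the most abundant period gene in each library, at 5.91 to 59.0 times the level of PER2, and was highest at D2, where PER2 was low. It did not pass the filter, and its log2 ratio from reads at D2 vs D0 was 1.83 (1.63 to 2.04). CIART (CHRONO), which also blocks CLOCK and ARNTL, was at 0.955, 3.53, 1.07 and 1.97 FPKM at D0, D2, D4 and D8. Its D2 library stood out, at a log2 ratio from reads of 1.89 above D0 (1.69 to 2.09), and D4 was below D2 by −1.73 (−1.92 to −1.53). BHLHE41 (DEC2) was at 0.0933 to 0.279 FPKM and lowest at D2, so BHLHE40 was at 39.6 to 133 times its level.

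Of the D-box factors, TEF, an activator of the same family as DBP, was at 1.55 FPKM at D0, 2.09 at D2, 1.10 at D4, then 0.570 at D8. It was highest at D2 and lowest at D8, the order that NR1D2 showed, and was lower at D8 than at D0 by a log2 ratio from reads of −1.45 (−1.72 to −1.18). HLF, the remaining activator, was low, with 0.122, 0.294, 0.191 and 0.0590 FPKM. NFIL3, the repressor that competes with them, was at 25.3, 15.5, 21.0 and 17.5 FPKM and lowest at D2. TEF was at 10.2 times the level of DBP at D0, 12.4 times at D2, 5.46 times at D4, then 2.16 times at D8.

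Of the kinases and phosphatases that act on clock proteins, 10 of 10 measured passed and 0 were called in any of the 6 comparisons, in which 5.08% to 19.2% of all genes were. D8 was below D0 for 10 of 10, as it was for 6292 of the 9191 genes, and the median log2 ratio was −0.32 beside −0.18 for all genes. Of the ubiquitin ligases and deubiquitinases, 5 of 7 passed and 0 of the 5 were called. Below the filter in that list, FBXL21, an F-box protein that binds cryptochromes, was at 0.167, 0.265, 0.191 and 0.0230 FPKM, from 71, 82, 80 and 7 reads. D8 was its low library, below D4 by a log2 ratio from reads of −3.06 (−4.42 to −1.95). Of the corepressors and partners, 8 of 10 measured passed and 1 was called, SIRT1, a deacetylase, which was 2.10-fold lower at D8 (1.55 FPKM) than at D4 (3.27 FPKM). HDAC3, the deacetylase that works with REV-ERB receptors, was at 10.5, 13.4, 17.8 and 10.1 FPKM at D0, D2, D4 and D8, and NCOR1, their corepressor, at 1.72, 1.40, 1.55 and 0.998 FPKM.

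Of the clock-controlled outputs, 9 of 10 were measured and 6 passed. KLF9, a factor induced by both the clock and glucocorticoids, was at 8.67 FPKM at D0, 55.4 at D2, 74.8 at D4, then 28.2 at D8. E2F1, a cell cycle factor, was at 3.30, 0.753, 3.48 and 1.72 FPKM. KLF9 was thus higher and E2F1 lower at D2 than at D0. NAMPT, the enzyme of NAD synthesis, stayed between 13.2 and 16.7 FPKM. Below the filter, PPARGC1A was at 0.0403, 0.357, 0.355 and 0.0605 FPKM, WEE1, a brake on mitosis, at 1.41, 0.322, 0.505 and 0.657, and NOCT (nocturnin) at 0.458, 0.858, 1.35 and 1.01.

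Other marker lists were read in the same libraries. Of 7 genes known to be induced by glucocorticoids, 5 were at least 2-fold higher at D2 than at D0 (FKBP5 from 4.88 to 61.2 FPKM, TSC22D3 from 3.26 to 33.5), where 6.67% of all genes that passed were. ERRFI1 was at least 2-fold lower (14.6 to 6.56 FPKM), DUSP1 was at 109 and 99.3 FPKM, and the list summed to 142, 264, 228 and 170 FPKM in order. Of 8 genes known to be induced by cAMP, 7 were measured and they summed to 12.5, 27.3, 24.8 and 11.8 FPKM. FOS (1.49 to 9.83 FPKM from D0 to D2) and PDE4B (1.72 to 7.03) carried most of that sum's change. Of the 5 that passed the filter, 3 were called higher at D2. CREM (5.20 to 3.18) and, below the filter, NR4A2 (0.412 to 0.152) were lower in value there. Smooth muscle or pericyte markers, led by ACTA2, summed to 3438 FPKM at D0 and 2823 at D8 but 366 at D2 and 233 at D4, with MYH11 at 0.633 FPKM or less. ACTA2 made up the D8 sum (2907 FPKM at D0 and 2762 at D8), since DES was at 436 and 35.7 FPKM and CNN1 at 94.3 and 24.2 in those libraries. Proliferation markers summed to 67.9, 6.63, 28.2 and 43.7 FPKM, and immune markers to 3.54 to 8.03 FPKM, mostly from CD14. The part of any of these in the levels of the clock genes was not tested.

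Circular RNAs, which form when a splice donor joins to an upstream acceptor, gave a readout of the same loci in junction reads. These reads came from the same libraries as the FPKM and are not independent of it. Of the 8623 circRNAs in the libraries, 5 came from 3 of the 10 clock genes, as matched by position and strand, and the libraries held 37480 to 53207 junction reads in all. At least 1 circRNA was listed for 30.0% of the clock genes and for 20.5% of all protein-coding genes, and for 2 of the 6 clock genes that passed (CLOCK and NR1D2) beside 31.9% of all genes that passed. The circRNA caller required at least 2 junction reads, so a listed 0 can stand for 1 read, and intervals and read numbers cover counting error only.

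CLOCK gave 3 circRNAs. ssc_circ_0004281 (chr8:54838915-54855096) had 5 junction reads in the D0 library, 10 at D2, 16 at D4, then 2 at D8, ssc_circ_0004282 (chr8:54846172-54855096), which shares one end with it, had 5, 6, 2 and 0, and ssc_circ_0004280 (chr8:54816224-54820045) had 0, 12, 8 and 0. The reads were thus most numerous at D2 and D4, with 28 and 26 in all beside 10 at D0 and 2 at D8. For ssc_circ_0004281, the log2 ratio of D8 to D4 was −2.55 (−5.72 to −0.46), and that of the whole gene was −0.48 (−0.55 to −0.41), so their intervals overlapped.

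PER2 gave 1 circRNA, ssc_circ_0007401 (chr15:137824300-137825447), with 11 junction reads in the D0 library, 4 at D2, 0 at D4, then 7 at D8 beside 57, 21, 15 and 33 reads of the whole gene. Both had more reads at the outer stages than at the inner ones, but for the circRNA the log2 ratios of D2 to D0 (−3.29 to 0.57) and of D8 to D2 (−0.94 to 3.26) had intervals that held 0. The circRNA of NR1D2, ssc_circ_0006004 (chr13:10765898-10778469), had 4 junction reads at D2 and was listed at 0 elsewhere, D2 also being the library in which the gene was highest. Among the paralogues, 2 circRNAs of ARNTL2 with 36, 36 and 45 junction reads together in the D0, D2 and D4 libraries were listed at 0 at D8, where the gene was lowest.

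Noncoding features near the clock genes were mostly at a few reads. A long intergenic RNA on the other strand, MSTRG.137733 (chr15:137787715-137793404), lies 15 bases from PER2 and was at 0.328, 0.0946, 0 and 0.601 FPKM, from 19, 4, 0 and 25 reads. Like PER2 and its circRNA, it was higher at D0 and D8 than at D2 and D4. At the end of NR1D2, the antisense RNA MSTRG.107222 (chr13:10790421-10791121) had 19 reads at D0, 0 at D2, 0 at D4, then 4 at D8. It was thus absent from the counts at D2, where NR1D2 was highest, and also at D4, where NR1D2 was below its D0 level. LOC106505661, a long noncoding RNA that overlaps 35.9% of BHLHE40 on the other strand, was at 0.247, 0.0547, 0.105 and 0.139 FPKM, with D0 highest, where BHLHE40 was lowest.

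**Figure D5:**
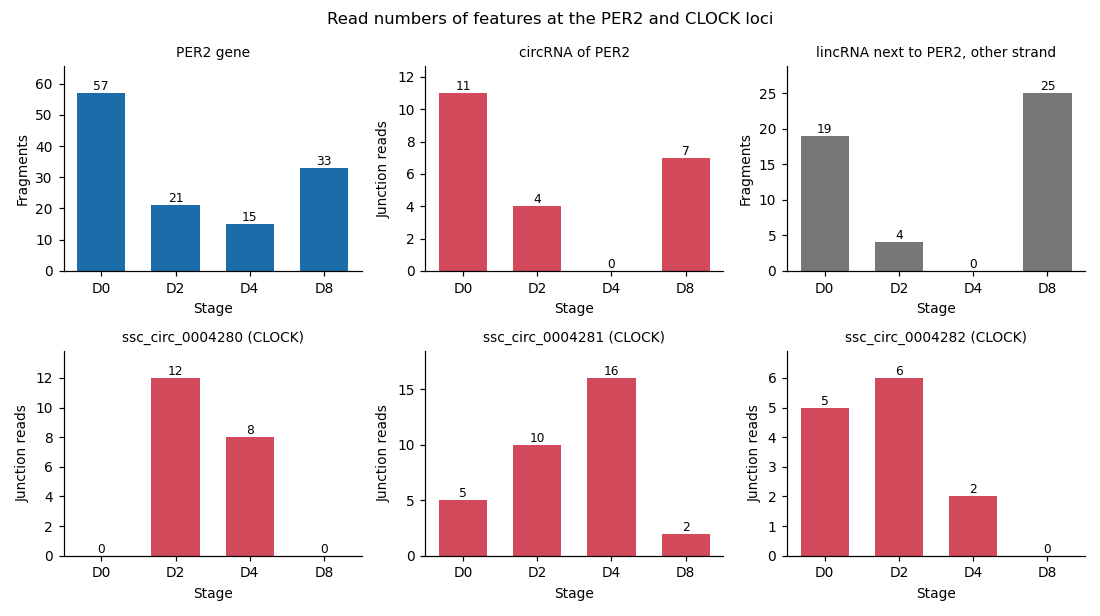
Read numbers (y axis, from 0, with the number above each bar) in the D0, D2, D4 and D8 libraries (x axis): fragments of PER2, junction reads of its circRNA and fragments of the neighbouring long intergenic RNA in the upper row, and junction reads of the 3 circRNAs of CLOCK in the lower row. Each bar is 1 pooled library and is not scaled for depth, and a circRNA at 0 can stand for 1 read; the 3 features at PER2 are lowest at D4, and the circRNAs of CLOCK are fewest at D8.

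The genes whose profiles lay closest to CRY2, NR1D2 and ARNTL, the 3 clock genes with the largest ranges among the 6 that passed, were found among 8847 named genes that passed the filter, by the root mean square difference of centred log2 values over the 4 libraries. For CRY2 they were ZFP36L1 (0.05), POMGNT2 (0.06) and RNF151 (0.10). For NR1D2 they were SLC25A37 (0.07), FGF7 (0.09) and PAQR3 (0.14). For ARNTL they were S100A2 (0.05), CAMK1 (0.07) and SYTL4 (0.07). With 4 libraries a profile is only 4 numbers, and the likeness is a description.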

How the data were processed

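Ribosomal RNA was removed and directional libraries were sequenced from 1 pool of 3 piglets per stage. The authors aligned reads with HISAT2 2.0.5 to Sscrofa11.1 and deposited FPKM values per gene, and circRNA values from BWA and CIRI as a signal, junction reads scaled to depth (SRPBM), listed from 2 junction reads upward. The 31567 features include 16192 protein-coding genes and 8623 circRNAs.

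The members and the gene lists were chosen with earlier results of these data known. Ratios were taken on log2(FPKM + 0.01), which understates changes of low genes. A gene passed at FPKM of at least 1 in at least 3 of 4 libraries, and was called at a ratio of at least 2, with no test. Library totals were read from tRNA genes, taken as having 1 exon, as the size of 1 fragment. In the 4 libraries 91.0% to 92.7% of their values were whole within 0.02. Each gene's reads then followed from the shortest length that made its values in all 4 libraries whole within 0.001, so true reads may be a whole multiple and intervals are at their widest. The recovery was tested on simulated data. Intervals are exact conditional binomial (Clopper-Pearson) at 95%, from scipy 1.17.1. Named genes were the 10 members, the listed genes needed to describe a list or at least 2-fold apart, and the 3 nearest profiles of the 3 members with the largest range among those that passed. Alternatives were pseudocounts of 0.1 and 1, no filter, and rescaling by the protein-coding sum or by median ratios. Promoter and protein sequences were not analysed here, and a few listed genes are not reported here.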

Additional observations from a re-analysis of the deposited data

How the results depend on the processing

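No paired analysis was possible because each stage is 1 pooled library. Among the 60 ratios of clock genes, the direction was the same in 57 to 60 under each alternative, and none of the values called at a ratio of 2 turned. With a pseudocount of 1, 0 clock genes were called at D2 vs D0 and 0 at D8 vs D4. With no filter, the counts were 2 at D2 vs D0, 1 at D4 vs D2, 3 at D8 vs D4 and 1 at D4 vs D0 of 10, where 29.6%, 18.7%, 27.7% and 32.2% of all genes were called. With median-ratio scaling, 2 were called at D8 vs D4 (ARNTL and CRY2), and the median log2 ratio of the clock genes became −0.15 at D8 vs D4, −0.0175 at D8 vs D0 and −0.0792 at D8 vs D2. With the protein-coding sum it became 0.49 at D2 vs D0 and −0.32 at D8 vs D2, and with no filter −0.17 at D8 vs D4 and −0.29 at D8 vs D0. For the other clock lists, the number called with no filter was 9 at D2 vs D0, 4 at D4 vs D2, 9 at D8 vs D4, 7 at D4 vs D0, 7 at D8 vs D0 and 11 at D8 vs D2, and with a pseudocount of 1 it was 3 at D8 vs D4, 2 at D8 vs D0 and 2 at D8 vs D2. Median-ratio scaling moved the median of all genes from −0.21 to −0.02 at D8 vs D4, from −0.18 to −0.02 at D8 vs D0 and from −0.12 to 0.00 at D8 vs D2, and the share of calls that were higher from 30.5% to 50.6%, from 49.5% to 66.9% and from 59.4% to 70.5%. The protein-coding sum moved that median from −0.03 to 0.08 at D2 vs D0 and from −0.12 to −0.23 at D8 vs D2, where the share became 46.9%. Depth limits NR1D1, PER2 and DBP, at 7 to 57 reads.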
